A study of Mus musculus with 7 samples.

Results

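A set of 10 Notch pathway genes was followed in the RNA of mouse Group 3 medulloblastomas (G3 MBs), namely the receptors Notch1, Notch2 and Notch3, the ligands Dll1, Dll3, Jag1 and Jag2, and the target genes Hes1, Hes5 and Hey1. They were found by their symbols in the count table, which held all 10 of them among 34592 genes, and all 10 passed the filter on low counts that left 17389 genes for testing. The 7 tumors all came from tumorsphere line # 19568. Per the methods, it was derived from cerebellar granule neuron progenitors that carried Myc and GFP on an MSCV retrovirus (Myc-IRES-GFP), while a figure legend gives Myc-IRES-RFP for this line. The progenitors, per the methods, lacked Trp53 and Cdkn2c (Trp53-/-; Cdkn2c-/-, postnatal day 7). The cells were infected with a lentivirus and grown in the cortices of CD1 nu/nu mice. The methods give an age of 6 to 8 weeks for the mice that received the progenitors, and none for the mice of these tumors. For 4 tumors the label gives overexpression of WDR11, the human cDNA driven by the EF1 promoter together with copGFP (WDR11OE). For the 3 controls it gives no treatment, while the methods describe the empty vector. Tumors were taken when the mice became moribund, so the time of growth was not fixed. Lentiviral infection reached only a part of the cells, and every tumor goes back to 1 tumorsphere line, so the tumors are replicates of that line and not of the model. The labels do not say that each library is a separate animal, and the p-values measure the spread between these libraries.

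In the Notch pathway, a Delta-like or Jagged ligand on one cell binds a Notch receptor on its neighbor. ADAM proteases and the gamma-secretase complex then cut the receptor, and its intracellular part enters the nucleus, where it joins the DNA-binding protein RBPJ and a Mastermind coactivator and switches on HES and HEY genes. HES and HEY proteins are repressors that hold back proneural genes and keep progenitors from differentiating. In the cerebellum, Notch2 is known as the receptor of proliferating granule neuron progenitors, whereas Notch1 and Jag1 are also used by glia and Notch3, Hey1 and Heyl by vessels and their mural cells.

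Total counts per library lay between 33417175 and 41397427 in the controls and between 32116095 and 87141305 in the tumors labelled WDR11OE. At this depth 3 counts correspond to at most 0.0924 CPM (counts relative to library size, scaled by edgeR's TMM), a floor that covers counting error only. The row for the overexpressed gene did not separate the groups. Human WDR11 stood at 2.03, 2.19 and 3.13 CPM in control replicates 1 to 3 and at 4.38, 2.11, 3.05 and 0.624 CPM in WDR11OE replicates 1 to 4, so that replicate 4 lay below every control (log2 fold change 0.047, SE 0.58, adjusted p = 0.961, edgeR). Mouse Wdr11, on which reads of the human cDNA could also have been counted, was at 58.3 to 59.3 CPM in the controls and at 61.0 to 68.9 CPM in the tumors labelled WDR11OE, ranges that do not overlap but lie close together (log2 fold change 0.16, SE 0.062, adjusted p = 0.0910, edgeR). For this reason the tumors are called by their label throughout, and each direction below is a direction between labels. The libraries labelled WDR11OE carry sample numbers from another series than the controls, so the label and the series cannot be told apart. The titles of WDR11OE replicates 1 and 2 share a number, and with both summed to 1 sample the same count of Notch genes, 5, was called lower.

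All 3 receptors were called lower in the tumors labelled WDR11OE, against 15.8% of all tested genes and 21.9% of those within the GC range of the 10 Notch genes. For none of the 3 did the groups overlap, where 19.1% of all tested genes were lower without overlap. Notch2, on chromosome 3 of NCBIM37 from 97817461 to 97954290, was measured at 494.6, 389.2 and 387.4 CPM in control replicates 1 to 3. The 4 tumors labelled WDR11OE had 224.3, 267.7, 287.3 and 204.8 CPM. Every tumor labelled WDR11OE was therefore below the lowest control, with replicate 4 the lowest of all. Notch2 was lower by edgeR (log2 fold change −0.78, SE 0.15, adjusted p = 0.00660), and a two-sided exact permutation test over the 35 splits of the tumors gave p = 0.0286, the smallest it can give.

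Notch1, on chromosome 2 from 26313423 to 26372183, stood at 91.9, 85.4 and 90.04 CPM in the controls, which differed little from each other. The tumors labelled WDR11OE had 61.0, 63.9, 62.8 and 41.5 CPM, with replicates 1 to 3 close together and replicate 4 well below them. Notch1 was lower as well (log2 fold change −0.64, SE 0.15, adjusted p = 0.0155, edgeR, two-sided exact permutation p = 0.0286). Without WDR11OE replicate 1 the adjusted p was 0.0535.

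Notch3, on chromosome 17 from 32257765 to 32303825, fell furthest of the 10. It was measured at 27.7, 40.8 and 27.2 CPM in the controls and at 13.7, 17.3, 20.4 and 11.7 CPM in the tumors labelled WDR11OE. Control replicate 2 was higher than the other controls, and the highest tumor labelled WDR11OE, replicate 3, remained below the lowest control. Its difference (log2 fold change −1.02, SE 0.23, adjusted p = 0.0128, edgeR, two-sided exact permutation p = 0.0286) passed the test and was the only one of the 10 past a 2-fold change.

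The calls of Notch1 and Notch3 were lost when a trend with exon base composition was removed. Across 17125 tested genes with an annotated sequence, the log2 fold change fell with exon GC content (Spearman's rho −0.34, across genes, which are not independent replicates). The exons of Notch3 are 59.6% GC, those of Notch1 55.4% and those of Notch2 53.6%, against a median of 49.8% over the tested genes. With the GC trend of each tumor removed by loess, Notch2 was still lower (log2 fold change −0.65, adjusted p = 0.0198, edgeR), while Notch3 (−0.66, adjusted p = 0.0540, edgeR) and Notch1 (−0.43, adjusted p = 0.0570, edgeR) no longer passed. With GC content and exon length removed together, an alternative chosen after the values were seen, none of the 3 passed and the log2 fold changes were 0.071 for Notch1, −0.24 for Notch2 and −0.31 for Notch3 (adjusted p = 0.838, 0.250 and 0.328, edgeR). By that setting Notch1 was no longer on the lower side. The part of base composition and length in these differences was not tested further.

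**Figure D1:**
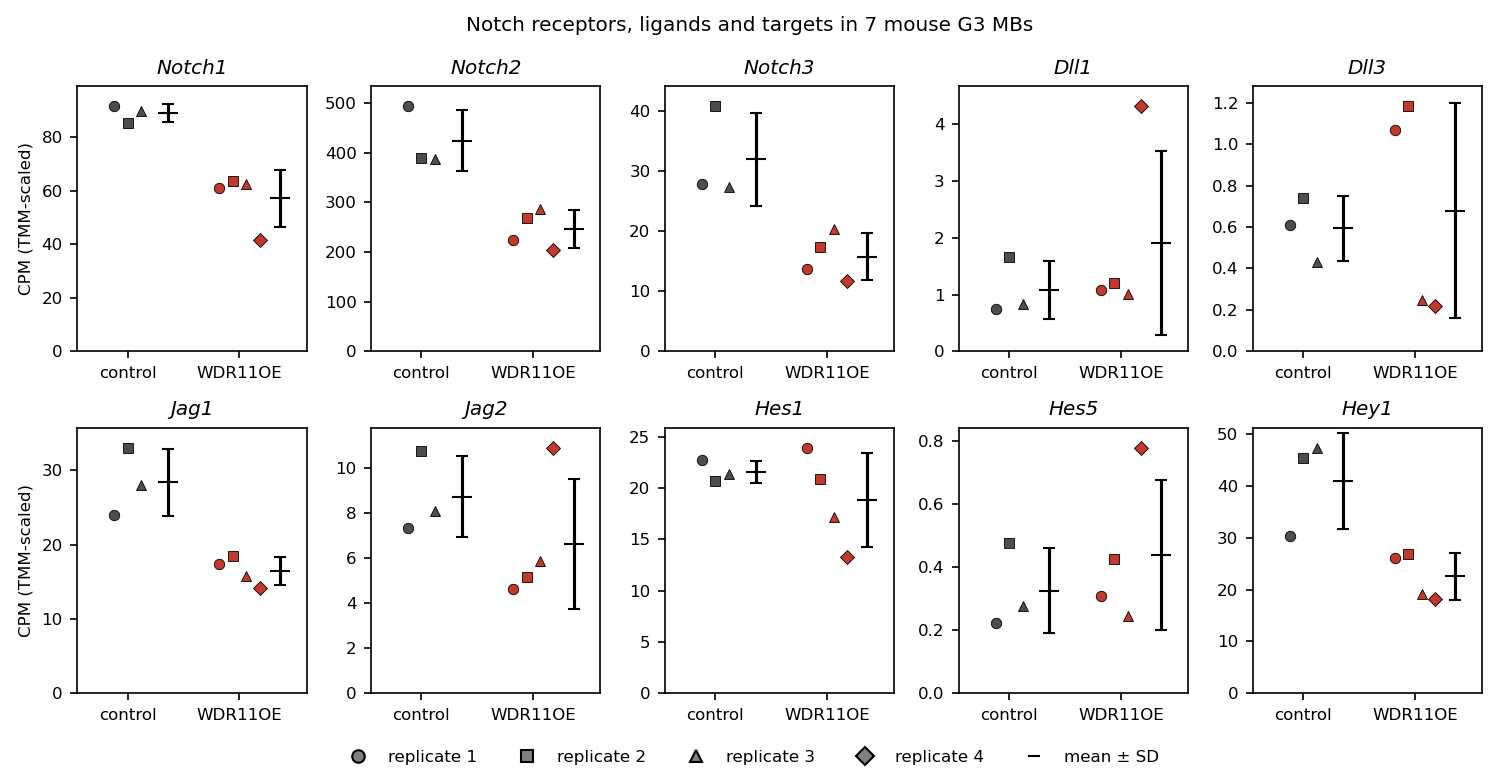
Level of each of the 10 Notch genes (CPM, linear axes from 0) in 3 control tumors and 4 tumors labelled WDR11OE, one symbol per library, with the mean ± SD beside them. The groups do not overlap for Notch1, Notch2, Notch3, Jag1 and Hey1, and WDR11OE replicate 4 (diamond) is the highest library for Dll1, Jag2 and Hes5.

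The start regions of the 3 receptors are shown because these genes were lower together. The last 120 bases before the RefSeq start of each are given 5′ to 3′ on the gene's strand (build GRCm38.p6, which is not the build of the counts), with GC boxes, GGGCGG on either strand, in capitals. They lie at chr2:26503823-26503942 on the minus strand for Notch1, at chr3:98013418-98013537 on the plus strand for Notch2 and at chr17:32166891-32167010 on the minus strand for Notch3. Jag1, at chr2:137116521-137116640 on the minus strand, was lower as well and is shown beside them for contrast.
Notch1: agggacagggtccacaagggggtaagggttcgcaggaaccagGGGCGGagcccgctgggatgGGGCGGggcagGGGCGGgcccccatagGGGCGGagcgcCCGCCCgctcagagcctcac
Notch2: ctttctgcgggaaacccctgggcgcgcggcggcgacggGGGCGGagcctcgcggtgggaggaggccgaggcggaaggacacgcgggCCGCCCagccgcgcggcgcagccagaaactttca
Notch3: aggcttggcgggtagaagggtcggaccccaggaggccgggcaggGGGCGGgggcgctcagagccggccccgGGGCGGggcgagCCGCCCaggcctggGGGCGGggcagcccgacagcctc
Jag1: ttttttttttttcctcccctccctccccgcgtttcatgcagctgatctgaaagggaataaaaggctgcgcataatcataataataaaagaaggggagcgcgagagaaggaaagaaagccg
The 250 bases before the start held 5 GC boxes for Notch1, 5 for Notch2 and 4 for Notch3, whereas no match stood in this window of Jag1. A GC box was present in 32.7% of 32851 promoters of the same length, and 16.7% held more than 1. These windows were 66% GC for Notch1, 72% for Notch2, 68.8% for Notch3 and 57.2% for Jag1, and the shares over all promoters are not matched for GC content. Jag2, which did not pass the test, also had 5 GC boxes, and Dll3, which did not pass either, had 1. The E-box CACGTG was in none of the 9 promoter entries found for 8 of the 10 genes, against 6.02% of all promoters. Hes1 and Hey1 have no entry.

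Among the ligands, Jag1 was lower and the other 3 did not pass the test. Jag1, a Jagged ligand on chromosome 2 from 136907192 to 136942380, was measured at 24.0, 33.0 and 28.0 CPM in the controls. The tumors labelled WDR11OE had 17.4, 18.4, 15.7 and 14.2 CPM, all below the lowest control and close to each other. Jag1 was lower by the test across all genes (log2 fold change −0.79, SE 0.14, adjusted p = 0.00545, edgeR, two-sided exact permutation p = 0.0286). At 48.5% the exons of Jag1 have the lowest GC content of the 10 genes, and its difference remained when the GC trend was removed (log2 fold change −0.82, adjusted p = 0.00707, edgeR) and when exon length was removed as well (−0.66, adjusted p = 0.0216, edgeR). Jag1 passed the test under each of the 17 alternatives that were run, with log2 fold changes between −0.90 and −0.66.

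Jag2, the other Jagged ligand, on chromosome 12 from 114146801 to 114167706, was split within the tumors labelled WDR11OE. The controls had 7.31, 10.7 and 8.09 CPM. WDR11OE replicates 1 to 3 had 4.62, 5.15 and 5.89 CPM, below every control, but replicate 4 had 10.9 CPM, above every control. With a log2 fold change of −0.39 and an SE of 0.33, Jag2 missed the threshold (adjusted p = 0.404, edgeR). Without replicate 4 it was −0.74 (adjusted p = 0.0301, edgeR), and with the GC trend removed from all 7 tumors it was 0.057 (adjusted p = 0.924, edgeR), on the other side of 0.

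Dll1 and Dll3, the Delta-like ligands, were low, and Dll3 came close to the floor of detection with as few as 8 counts in WDR11OE replicate 3. Dll1 was measured at 0.750, 1.67 and 0.827 CPM in the controls and at 1.09, 1.198, 1.02 and 4.33 CPM in the tumors labelled WDR11OE. Replicate 4 stood apart with 395 counts, and the other 3 lay within the range of the controls. Dll1 did not pass (log2 fold change 0.82, SE 0.63, adjusted p = 0.362, edgeR), and without replicate 4 its log2 fold change was 0.021 (adjusted p = 0.971, edgeR). An antisense lincRNA, A930024N18Rik, shares 20.5% of the exon bases of Dll1, and since the strand setting of the counting is not given in the sources used here, reads of the 2 genes cannot be told apart there.

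Dll3, which unlike the other ligands acts mainly inside the cell that makes it, had 0.611, 0.739 and 0.429 CPM in the controls. In the tumors labelled WDR11OE it had 1.07 and 1.19 CPM in replicates 1 and 2 and 0.246 and 0.219 CPM in replicates 3 and 4. The former pair was above every control and the latter below, so the group spread to both sides (log2 fold change 0.20, SE 0.67, adjusted p = 0.852, edgeR). Its sign was not stable, and limma-voom gave −0.20.

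Of the 3 target genes, Hey1 was lower and Hes1 and Hes5 did not pass the test. Hey1, a HEY repressor on chromosome 3 from 8663362 to 8667039, was measured at 30.3, 45.3 and 47.3 CPM in the controls. The tumors labelled WDR11OE had 26.1, 26.8, 19.1 and 18.2 CPM. Control replicate 1 was the lowest control and lay near the highest tumors labelled WDR11OE without overlapping with them. Hey1 was lower by the test across all genes (log2 fold change −0.86, SE 0.21, adjusted p = 0.0166, edgeR, two-sided exact permutation p = 0.0286). Hey1 did not pass without control replicate 2 (adjusted p = 0.0643, edgeR) or control replicate 3 (adjusted p = 0.0627, edgeR), while it passed with the GC trend removed (log2 fold change −0.83, adjusted p = 0.0209, edgeR) and with GC content and length removed (−0.98, adjusted p = 0.00913, edgeR).

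Hes1, the HES repressor best known as a direct Notch target, lies on chromosome 16 from 30064470 to 30067882. It was measured at 22.8, 20.7 and 21.4 CPM in the controls and at 23.9, 20.9, 17.2 and 13.3 CPM in the tumors labelled WDR11OE. Replicate 1 was above the controls and replicates 3 and 4 were below them. Hes1 missed the threshold (log2 fold change −0.20, SE 0.19, adjusted p = 0.479, edgeR) and did so under each of the 17 alternatives, where its log2 fold change lay between −0.36 and −0.063. The ratio of Hey1 to Hes1 per exon length, which does not depend on the scaling between libraries, was 1.23, 2.02 and 2.05 in the controls and 1.01, 1.19, 1.03 and 1.27 in the tumors labelled WDR11OE. The groups overlapped in this ratio through control replicate 1 (two-sided exact permutation test, p = 0.0571).

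Hes5, a HES repressor of neural progenitors, was close to the floor like Dll3, with as few as 8 counts in control replicate 1 and in WDR11OE replicate 3. It stood at 0.222, 0.477 and 0.276 CPM in the controls and at 0.308, 0.424, 0.246 and 0.778 CPM in the tumors labelled WDR11OE. Replicate 4 was again the highest and the others lay within the controls (log2 fold change 0.45, SE 0.49, adjusted p = 0.526, edgeR). Without replicate 4 it was 0.020. An antisense transcript shares 31.8% of its exon bases. The 250 bases before the start of Hes5 are shown because they were the only stretch among the 9 promoter entries that held the motif of RBPJ, the DNA-binding partner of the Notch intracellular part (chr4:154960673-154960922, plus strand, GRCm38.p6). The letters searched, GTGGGAA on either strand, are in capitals.
Hes5: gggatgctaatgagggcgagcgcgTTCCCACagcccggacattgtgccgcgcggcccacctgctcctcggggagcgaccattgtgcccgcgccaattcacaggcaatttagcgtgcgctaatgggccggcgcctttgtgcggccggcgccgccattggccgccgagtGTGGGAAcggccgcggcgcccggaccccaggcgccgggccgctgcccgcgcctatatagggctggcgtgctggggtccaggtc
The matches begin 226 and 83 bases before the start and point in opposite directions. The motif was present in 5.42% of all 32851 promoters of this length, and 0.161% held more than 1.

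Taking the 10 genes together, edgeR's quasi-likelihood test called 5 lower (Benjamini-Hochberg adjusted p under 0.05) and 0 higher. No gene was higher at an unadjusted p under 0.05 either, or by limma-voom or DESeq2, both of which called the same number lower. Over all tested genes, 15.8% were called lower and 18.1% higher, 33.9% in all. Among the 9579 genes with an exon GC content within the range of the 10, from 48.5% to 63.1%, these shares were 21.9% and 9.21%. The groups did not overlap for the same 5 genes, whereas over all tested genes 19.1% were lower and 23.5% higher without overlap. The median log2 fold change of the 10 was −0.51, against 0.085 over all tested genes, and with the GC trend removed it was −0.27, against 0.072. With the GC trend removed, 3 of the 10 were called lower, namely Notch2, Jag1 and Hey1, where 14.3% of all genes were called lower and 13.5% higher. With GC content and exon length removed, Jag1 and Hey1 were called lower, where 12.6% of all genes were called lower and 11.7% higher. Where a 2-fold change and an average log2 CPM above 0 were required as well, Notch3 alone was called, against 3.43% of all genes lower and 2.38% higher.

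**Figure D2:**
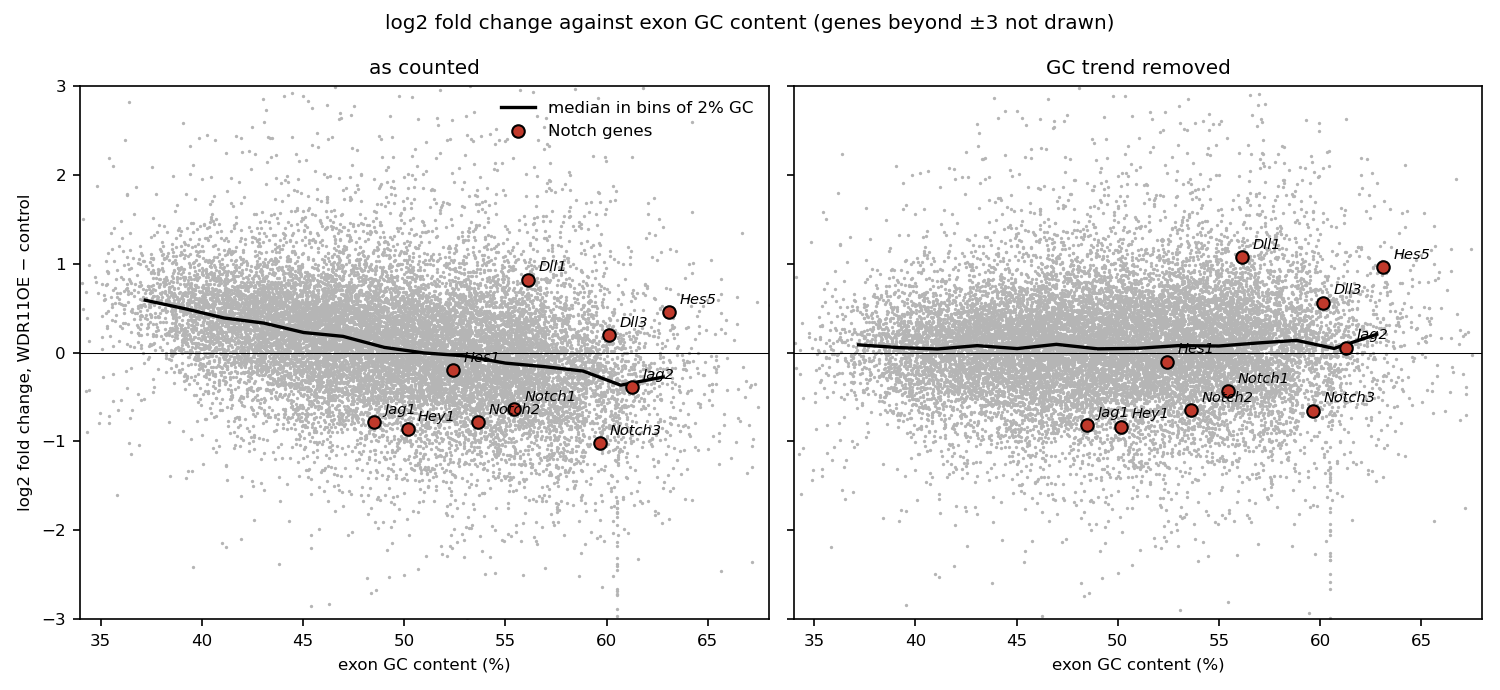
log2 fold change of every tested gene with an annotated sequence (grey, drawn within ±3) against its exon GC content in percent, as counted (left) and with the GC trend of each tumor removed (right), with the 10 Notch genes in red and the median of all genes in bins of GC as a line. The line falls with GC content on the left and is nearly flat on the right, where Notch3 moves from −1.02 to −0.66 and Jag1 from −0.79 to −0.82, and the vertical column of points just right of Notch3 holds copies of a ribosomal RNA gene.

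Levels can be compared between genes only per exon length, as RPKM computed from the scaled CPM. This length merges all annotated exons of a gene, 14232 bases for Notch1 and 10506 for Notch2. Exons that the transcripts of these tumors leave out would lower the RPKM of a gene. The order, shares and ratios between genes below hold only for these lengths. In the controls, Notch2 was the most abundant of the 10 at 40.3 ± 5.84 RPKM (SD, n = 3), followed by Hey1 at 18.6 ± 4.204 RPKM, Hes1 at 10.6 ± 0.525 RPKM and Notch1 at 6.26 ± 0.237 RPKM. Jag1 (4.87 ± 0.775 RPKM) and Notch3 (3.97 ± 0.957 RPKM) came next and their ranges overlapped. Jag2 followed at 2.15 ± 0.442 RPKM, and Dll1, Hes5 and Dll3, at 0.257, 0.238 and 0.206 RPKM, could not be ordered beyond their spread. The order of the means was the same in the tumors labelled WDR11OE, from Notch2 at 23.4 ± 3.62 RPKM (SD, n = 4) down to Dll3 at 0.236 ± 0.180 RPKM. There the ranges of Hey1 and Hes1 overlapped, at 10.2 ± 2.06 and 9.25 ± 2.26 RPKM, as did those of Notch1 and Jag1, of Jag1 and Notch3 and of Notch3 and Jag2. Notch2 made up between 77.0% and 82.6% of the summed RPKM of the 3 receptors in the controls and between 78.1% and 81.7% in the tumors labelled WDR11OE, ranges that overlap. The ratio of Notch2 to Notch1 per exon length was 6.43 ± 0.764 (SD, n = 3) in control and 5.89 ± 0.731 (SD, n = 4) in the tumors labelled WDR11OE (two-sided exact permutation test, p = 0.400).

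For 3 of the genes, the tested genes most like them over the 7 tumors were looked up among 14815 genes with an average log2 CPM above 0. This is a description that includes the difference between the groups. Notch3 was most like Hip1 (Pearson's r 0.991, Spearman's rho 0.964), Fam78a (0.991 and 1) and Zfp691 (0.988 and 0.964). Hes1 was most like BC023829 (0.972 and 0.786), Wnt9a (0.971 and 0.714) and Gm16516 (0.968 and 0.786). For Hes5 they were Prkg2 (0.960 and 1), Zdhhc2 (0.955 and 1) and Dll1 itself (0.950 and 0.964), with which it shares its high value in WDR11OE replicate 4.

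Beyond the 10 genes, 73 other genes of the pathway were listed by role and 67 of them passed the filter. Of these, 28 were lower and 6 were higher in the tumors labelled WDR11OE by edgeR with the same threshold, and 33 did not pass, where 15.8% and 18.1% of all tested genes were called, or 21.9% and 9.21% of those within the GC range of the 10 Notch genes. The counts by role below stand beside the same shares. Their median was −0.35 on the log2 scale. With the GC trend removed, 24 were lower and 6 were higher, and with GC content and exon length removed 19 were lower and 8 were higher.

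The nuclear complex held some of the lowest values. Of 10 tested genes, 6 were lower and 2 were higher. The mean of Maml1, a Mastermind coactivator, was 60.8 ± 6.13 CPM (SD over 3 controls, as for the other means of controls here) against 22.0 ± 3.96 CPM (SD over 4 tumors) with the label WDR11OE (log2 fold change −1.47, SE 0.14, adjusted p = 0.00105, edgeR). Crebbp and Ep300, the acetyltransferases that Mastermind recruits, had log2 fold changes of −1.25 and −1.12, and the acetyltransferase Kat2a, with the smallest p of the list, had −0.86 (SE 0.07, adjusted p = 0.000917, edgeR). Rbpj itself was also lower, with means of 83.3 ± 2.20 and 67.6 ± 5.65 CPM (log2 fold change −0.30, SE 0.08, adjusted p = 0.0238, edgeR). Snw1, a splicing factor that also binds the Notch complex, was higher (log2 fold change 0.64, adjusted p = 0.00530, edgeR), as was Kat2b (0.44, adjusted p = 0.00777, edgeR). All 7 of these passed also with GC content and length removed.

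Corepressors that act with RBPJ or with HES proteins were lower for 7 of 12 genes and higher for 1, against 15.8% and 18.1% of all tested genes, and for 7 and 0 with the GC trend removed or 5 and 1 with length removed as well. Spen, which binds RBPJ without Notch, had a log2 fold change of −1.29, and Tle3, a Groucho corepressor of HES proteins, had −0.94 (adjusted p = 0.00194 and 0.00120, edgeR). Hdac2 was higher (log2 fold change 0.42, adjusted p = 0.0184, edgeR), but not with the GC trend removed (0.072, adjusted p = 0.707, edgeR).

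Receptor processing and cleavage held 8 lower genes and 1 higher gene of 15, or 5 and 1 with GC content and length removed. Ncstn, a subunit of gamma-secretase, had means of 62.8 ± 7.73 and 31.3 ± 3.86 CPM (log2 fold change −1.01, SE 0.12, adjusted p = 0.00145, edgeR). Furin, the convertase that cuts the receptor on its way to the surface, had −0.87 (adjusted p = 0.00167, edgeR), but −0.29 with GC content and length removed (adjusted p = 0.131, edgeR). The Fringe enzymes, which put sugars on the receptor and tune its choice of ligand, did not move together. Rfng was lower (log2 fold change −0.997, SE 0.10, adjusted p = 0.00106, edgeR), Lfng was higher (0.63, SE 0.19, adjusted p = 0.0381, edgeR) and Mfng did not pass (−0.61, adjusted p = 0.115, edgeR). The call of Lfng was absent by limma-voom.

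Of the other receptors and ligands, Dlk1 and Mfap2 were lower. Dlk1, a Delta-like protein that lacks the part by which ligands activate Notch, had means of 11.003 ± 1.32 and 1.97 ± 1.44 CPM and the lowest log2 fold change of these lists (−2.49, SE 0.55, adjusted p = 0.0118, edgeR). Mfap2, a microfibril protein, had −1.56 (SE 0.16, adjusted p = 0.00107, edgeR). Notch4, a receptor of endothelium, had means of 12.2 ± 2.47 and 8.63 ± 2.22 CPM, and its endothelial ligand Dll4 had means of 9.05 ± 2.03 and 6.19 ± 1.75 CPM. Their log2 fold changes of −0.50 and −0.55 did not pass (adjusted p = 0.168 and 0.159, edgeR).

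Among the genes of endocytosis and turnover, 4 of 16 were lower and 2 were higher, against 15.8% and 18.1% of all tested genes. Within the GC range of the 10 Notch genes these shares were 21.9% and 9.21%. With the GC trend removed, 3 were lower and 2 higher, and with GC content and length removed 2 were lower and 3 higher. Dtx4 and Epn1 had log2 fold changes of −0.99 and −0.88 (adjusted p = 0.00186 and 0.00123, edgeR), while Dtx1, a Deltex protein that is itself a known Notch target, was higher at 0.70 (SE 0.17, adjusted p = 0.0163, edgeR). Itch, a ligase that degrades Notch, was higher at 0.35 (adjusted p = 0.00518, edgeR), but at 0.00017 with the GC trend removed. Of 6 tested genes among the other HES, HEY and target genes, Heyl was lower, with means of 31.9 ± 7.76 and 17.6 ± 4.77 CPM (log2 fold change −0.86, SE 0.27, adjusted p = 0.0422, edgeR), but not with the GC trend removed (adjusted p = 0.0908, edgeR). Hes6, which opposes Hes1, was at 12.4 ± 2.56 CPM and 14.1 ± 2.06 CPM (log2 fold change 0.19, adjusted p = 0.474, edgeR) and passed as higher with the GC trend removed (0.64, adjusted p = 0.0314, edgeR) or length as well (0.55, adjusted p = 0.0429, edgeR).

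**Figure D3:**
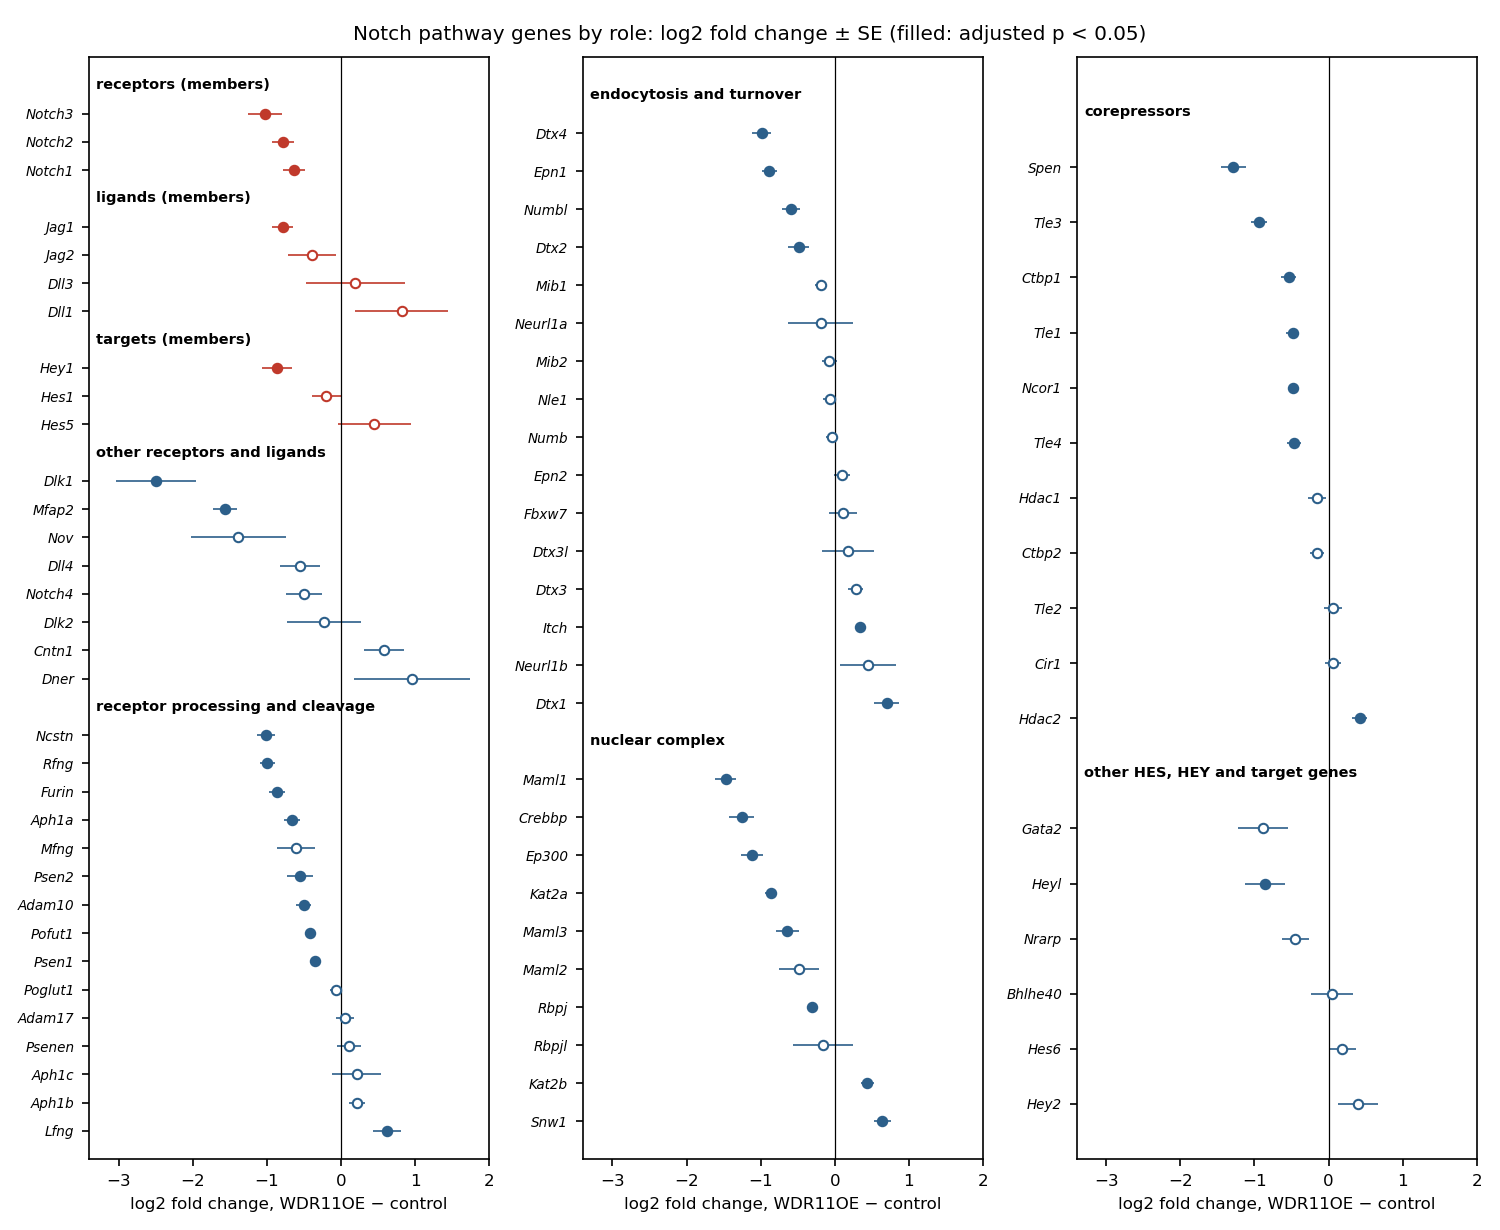
log2 fold change (WDR11OE minus control, horizontal axis) ± SE of the 10 Notch genes (red) and 66 of the 67 other tested pathway genes (blue), grouped by role, with filled points for an adjusted p under 0.05 by edgeR. Receptors, the nuclear complex and corepressors hold mostly filled points left of 0, whereas Dll1, Dll3 and Hes5 have the widest errors of the red points.

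The proneural and neuronal genes listed as repressed by HES proteins were low in all 7 tumors, at 3.89 CPM or less. Of the 9 listed, 4 passed the filter. Atoh1, the gene that defines granule neuron progenitors, had 0 counts in every library, which allows at most 0.0924 CPM, and so did Neurog3. Neurod1 was at 1.11, 0.548 and 0.153 CPM in the controls and between 0.0237 and 2.54 CPM in the tumors labelled WDR11OE, again highest in replicate 4 (log2 fold change 0.41, SE 1.27). By edgeR and limma-voom 0 genes of this list passed. Neurod2, the 1 gene lower at an unadjusted p under 0.05 by edgeR (log2 fold change −2.25, SE 0.90, adjusted p = 0.0957), was also the 1 that DESeq2 called lower. It stood at 3.89, 0.525 and 0.797 CPM in the controls and at 0.118, 0.462, 0.0924 and 0.712 CPM in the tumors labelled WDR11OE. Control replicate 1 was far above all other libraries, and the groups overlapped (two-sided exact permutation test, p = 0.114). Control replicate 1 and WDR11OE replicate 4 were also the libraries of their groups with the highest sum of neuron markers (443.3 and 646.7 CPM).

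Notch genes are also expressed by cells that a tumor chunk can hold beside the tumor cells, and in bulk RNA fewer cells of a type and less RNA per cell cannot be told apart. Of 9 listed markers of the tumor, Myc was abundant, at 812.2 to 1109 CPM in the controls and between 278.1 and 431.4 CPM in the tumors labelled WDR11OE (log2 fold change −1.40, SE 0.20, adjusted p = 0.00227, edgeR), and reads of the viral and the endogenous gene cannot be told apart. The other 5 tested tumor markers did not pass, with log2 fold changes of −0.53 for Npr3, −0.52 for Zic1, 0.034 for Pax6, 0.18 for Impg2 and 1.31 for Gabra5. Crx, Nrl and Barhl1 did not pass the filter, with at most 9 counts in a library. The summed CPM of 10 endothelial markers was between 150.5 and 201.9 in the controls and between 111.6 and 126.3 in the tumors labelled WDR11OE, and 4 of the 10 were lower, Cdh5 (log2 fold change −1.02), Flt1 (−0.74), Esam (−0.55) and Eng (−1.54). This was 4 of 10 against 15.8% of all tested genes. Esam no longer passed with the GC trend removed (adjusted p = 0.111, edgeR), nor did Flt1 or Esam with GC content and length removed (adjusted p = 0.0562 and 0.0892, edgeR). Pecam1 (0.12) and Tek (0.019) did not pass. The sum of 10 mural markers lay between 734.8 and 772.8 CPM in the controls and between 372.5 and 534.6 CPM in the tumors labelled WDR11OE. Of these, Pdgfrb (−0.60), Cspg4 (−0.79) and Anpep (−1.49) were lower, whereas Rgs5, a defining mural gene, was at 0.22 and did not pass. These calls were 3 of 10, against 15.8% of all tested genes. Most of the mural sum came from Cspg4, at 502.0 to 531.9 CPM in the controls and 217.4 to 352.8 CPM in the tumors labelled WDR11OE. The control means of Pdgfrb and Rgs5 were 106.1 and 55.4 CPM. The mural sum therefore mainly follows Cspg4, and bulk RNA does not show which cells made it, so the sum does not measure mural cells. Cspg4 did not pass with the GC trend removed (log2 fold change −0.45, adjusted p = 0.0595, edgeR), and with GC content and length removed neither did Pdgfrb (−0.21, adjusted p = 0.275, edgeR), which left Anpep. The endothelial sum and the mural sum, the latter mostly through Cspg4, moved in the same direction as Notch3, Jag1, Hey1 and Heyl. Their part in those differences was not tested.

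Sums of markers of neurons, astrocytes, oligodendrocytes and microglia overlapped between the groups. The 8 neuron markers summed to 443.3, 131.6 and 68.9 CPM in control replicates 1 to 3 and to 12.7, 29.0, 195.1 and 646.7 CPM in WDR11OE replicates 1 to 4. The sum of 8 astrocyte markers was highest in WDR11OE replicate 4 as well, at 1065 CPM, against 359.4 to 783.3 CPM in the other 6 libraries. S100b, 1 of the astrocyte markers, was higher, at 37.8 to 57.3 CPM in the controls and 82.9 to 92.1 CPM in the tumors labelled WDR11OE (log2 fold change 0.94, SE 0.15, adjusted p = 0.00359, edgeR), and the other 7 did not pass. Replicate 4 is the library in which Dll1, Jag2 and Hes5 were highest and in which Notch1, Notch2, Notch3, Jag1, Hes1, Hey1 and Dll3 were lowest. Its part in these values was not tested beyond leaving it out. With both tumors left out that had the most neuron marker counts of their group, control replicate 1 and WDR11OE replicate 4, 6 of the 10 genes were called lower, where 17.8% of all tested genes were lower and 14% higher. These were the same 5 and Jag2 (log2 fold change −0.90, adjusted p = 0.0201, edgeR), and the log2 fold changes of Dll1 and Hes5 were −0.23 and −0.24. All 8 markers of skeletal muscle were higher in the tumors labelled WDR11OE, with sums between 40.5 and 127.0 CPM against at most 2.72 CPM in the controls. Over all tested genes 18.1% were called higher, the share to set beside this list and beside S100b, 1 of 8 astrocyte markers. Oligodendrocyte sums (149.6 to 384.1 CPM in control, 138.9 to 349.9 CPM in the tumors labelled WDR11OE) and those for microglia and macrophages (129.9 to 213.6 CPM and 107.5 to 219.7 CPM) had 0 called genes by edgeR, limma-voom and DESeq2 and 0 at an unadjusted p under 0.05.

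**Figure D4:**
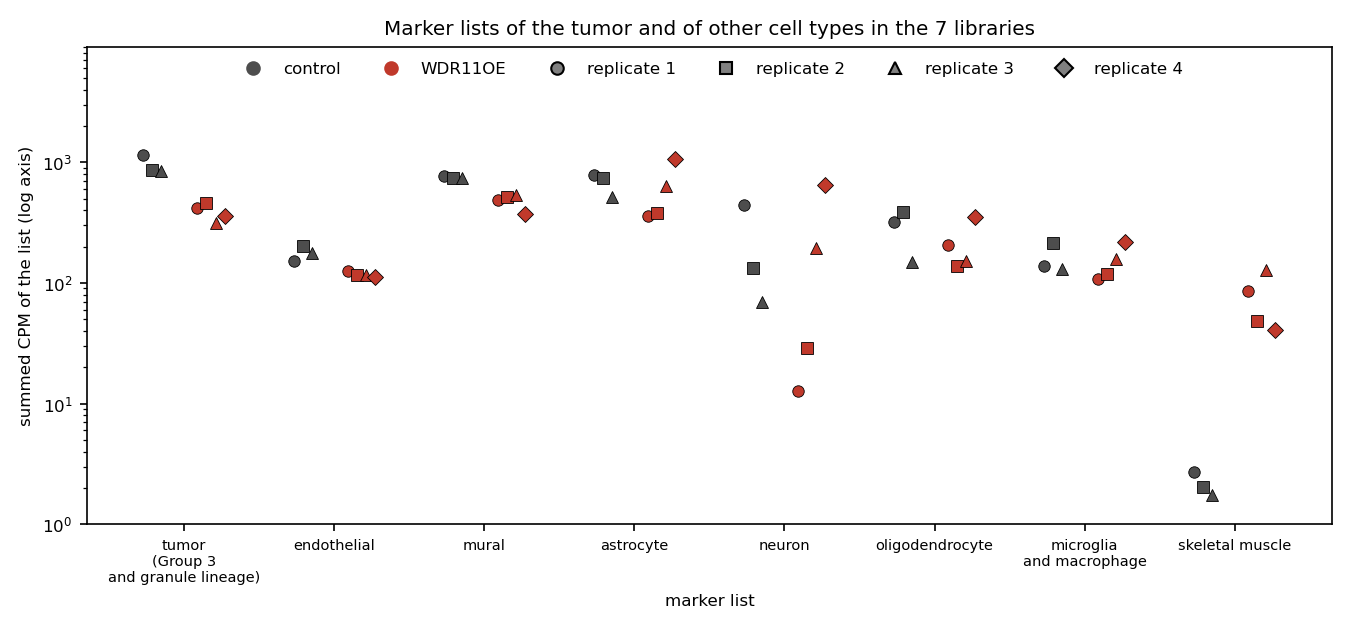
Summed CPM (log axis) of each marker list in the 3 control tumors and the 4 tumors labelled WDR11OE, one symbol per library. The endothelial and mural sums are lower in each tumor labelled WDR11OE, the muscle sums are higher, and the neuron sums range from 12.7 to 646.7 within the tumors labelled WDR11OE. Most of the mural sum is Cspg4.

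**Figure D5:**
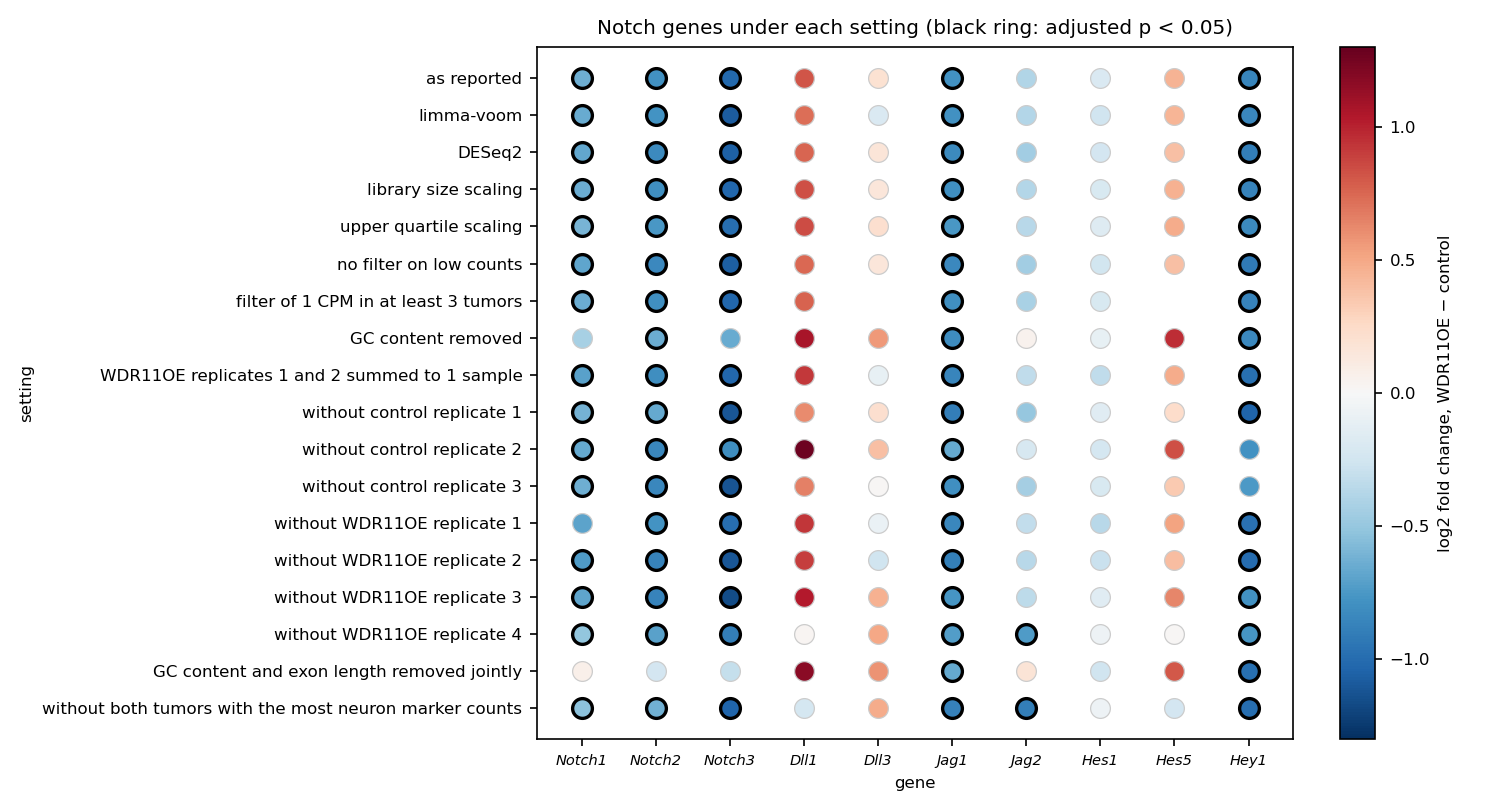
log2 fold change (color) of each of the 10 Notch genes as reported and under 17 alternative settings, with a black ring for an adjusted p under 0.05. Jag1 is ringed in every row, Notch1 and Notch3 lose the ring with the GC trend removed, Notch2 with exon length removed as well, Notch1 also without WDR11OE replicate 1 and Hey1 without control replicate 2 or 3, and Jag2 gains it in the rows without WDR11OE replicate 4.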

How the data were processed

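RNA from 7 mouse G3 MBs was sequenced. The authors mapped the reads to NCBIM37 (mm9) with the StrongArm pipeline, and the submitters' processing notes name CASAVA 1.7, STAR, BWA and HTSeq. They deposited raw read counts per gene and tumor, with a row for human WDR11. The kit is TruSeq RNA v2 in the labels and total stranded RNA in the methods, and the strand setting of the counting is not given in the sources used here. Of 34592 genes, 33606 matched GENCODE vM1 on NCBIM37 by Ensembl ID, which gave coordinates, exon length and GC content. Pairs of libraries of a group differed by more than sampling noise (a chi-square of 21.1 or more for each degree of freedom), and each library was counted once. The lowest value, 21.1, was that of WDR11OE replicates 1 and 2, whose titles share a number. Pieces of the same tumor could also differ by more than sampling noise, so these values cannot show that the libraries are separate tumors.

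Counts were analysed in R 4.3.3 with edgeR 4.0.16 (default filterByExpr, TMM, two-sided quasi-likelihood test, Benjamini-Hochberg adjustment over 17389 genes, adjusted p under 0.05). Permutation tests used log2 CPM with a prior count of 2. RPKM was CPM per kilobase of annotated exon, with all annotated exons of a gene merged. The same length was used where exon length was removed. The GC trend was a loess of each tumor's deviation from the gene mean (span 0.5, fitted on genes with an average log2 CPM above 0), entered as an offset, and genes without GC content were left as they were. limma 3.58.1 (voom, the test of the study) and DESeq2 1.42.0 were alternatives. The scripts were tested on simulated data. Promoter sequences are from RefSeq (GRCm38.p6) and were matched for 8 of the 10 genes.

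The genes, lists and tests were chosen with earlier results of these data known. Genes are named by a rule: the 10 Notch genes, the 10 called pathway genes with the smallest p, all called genes of a list with 5 or fewer calls, Notch4, Dll4, Rbpj, Hes6 and Heyl, defining markers, and the 3 genes most like Notch3, Hes1 and Hes5. Crebbp, Ep300, Spen, Snw1, Kat2b, Hdac2, Lfng, Mfng, Itch, Dtx1, Neurod1 and Neurod2 were named after their values were seen. A gene that the rule names is counted in its list but not reported here. The exome, qRT-PCR and survival data were not analysed here.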

Additional observations from a re-analysis of the deposited data

Results flagged for a closer look

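In 3 of 35 groups of values looked at, 1 tumor labelled WDR11OE stood apart from the other 3 by more than Dixon's 95% limit of 0.829, where chance flags about 1 in 20 groups. They were Notch1 (ratio of the gap to the range of log2 CPM 0.894), Dll1 (0.889) and Heyl (0.941). In each of them the tumor was replicate 4, lower than the others for Notch1 (41.5 CPM) and Heyl (10.4 CPM) and higher for Dll1 (4.33 CPM). Replicate 4 also had the largest total count, the highest sum of neuron markers and the lowest level on the human WDR11 row, and their part in these values was not tested.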

How the results depend on the processing

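The 10 genes gave 168 values under 17 alternatives, 2 of which were chosen after seeing the data (GC content with exon length, and the 2 tumors with the most neuron markers left out). Of these values 150 kept their direction and side of the threshold, 7 kept their direction but no longer passed, 2 newly passed and 9 changed sign. Among those that changed sign, Notch1 with GC content and exon length removed also no longer passed. The count of Notch genes called lower was 5, and it was 3 with the GC trend removed, 2 with GC content and exon length removed, and 1 with a 2-fold change and an average log2 CPM above 0 required. With those requirements 8 of 67 other pathway genes were lower and 0 higher by edgeR (7 were higher at an unadjusted p under 0.05, 5 by limma-voom and 6 by DESeq2 at any fold). The shares of all tested genes under the same requirements were 3.43% lower and 2.38% higher. With single tumors left out, between 4 and 6 Notch genes were lower and 0 were higher, and other pathway genes were lower for 24 to 28 and higher for 4 to 6. Of 16953 to 17839 genes tested in these settings, 2011 to 2868 were called lower and 1560 to 2986 higher. Signs changed for Notch1 (0.071) with GC content and length removed, and for Jag2 with GC removed (0.057) or GC and length removed (0.18). They changed for Dll1 (−0.23) and Hes5 (−0.24) without both neuron-rich tumors. For Dll3 they changed by limma-voom (−0.20), with WDR11OE replicates 1 and 2 summed (−0.11), and with single tumors left out (−0.26 to 0.50). Mouse Wdr11 was at −0.0086 with GC removed and passed as higher with upper quartile scaling (0.19, adjusted p = 0.0454, edgeR) and with GC and length removed (0.28, adjusted p = 0.0288, edgeR). Human WDR11 was at −0.44 by limma-voom, −0.0048 without a filter, −0.18 with replicates 1 and 2 summed and −0.37 to 0.37 with single tumors left out. Beyond the corrections themselves the causes were not tested. Dll3 and Hes5 did not pass the filter of 1 CPM. No paired analysis was possible because the labels give the groups no shared replicate numbers. Hes5 had 8 to 71 counts and Dll3 had 8 to 95 counts in a library.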
